A study of Homo sapiens with 24 samples.

Results

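Epithelial cells hold on to each other through junctions. Tight junctions seal the space between neighbouring cells, and desmosomes anchor the keratin filaments of one cell to those of the next. The genes described here encode parts of both structures together with surface adhesion proteins: EPCAM, CGN, CGNL1, MPZL2, PKP2, PKP3, JUP, DSP, TJP1 and F11R. The genes were chosen by their measured signals, because several of them differed widely between the miR-655-3p or miR-544a mimic and its controls in earlier results on the same arrays, and every probe annotated to one of the 10 symbols was then taken. No probe was annotated to F11R, so 9 of 10 genes were measured, with 20 probes of the 47309 on the array. Tests were run on probes with a detection p under 0.05 on the 2 arrays of any group, which held for 18 of the 20 and for 22803 probes in all. The dimmest member probe that passed was MPZL2 ILMN_1775016, detected on 2 arrays, both with the miR-655-3p mimic. The MPZL2 probe ILMN_2387078, detected on 1 array, and the DSP probe ILMN_1677032, detected on 0, were left out.

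The cells were MDA-MB-231, a human breast cancer line that has lost most epithelial features and grows as spindle-shaped single cells. They were transfected at 50 nM and harvested 48 hours later with 1 of 6 microRNA mimics (miR-655-3p, miR-369-3p, miR-544a, miR-127-5p, miR-410 or miR-135a), with 1 of 5 microRNA inhibitors (the same microRNAs without miR-127-5p) or with a non-targeting (NT) control. A mimic is a chemically made duplex that the cell uses like its own microRNA, an inhibitor binds the microRNA and keeps it from its targets, and the NT control is a mimic designed to have no target. By the methods of the paper, the non-targeting mimics that served as negative controls carried a fluorescent label. There was no separate control for the inhibitors. Each of the 12 groups was measured on 2 Illumina bead arrays, 24 in all, and every group comes from the same line, so the results describe 1 cell line. The labels leave unstated if separate cultures were used for the 2 arrays of each group, and the p-values therefore measure only the spread between these arrays, which may be technical. Because the RNA came from whole cultures, fewer cells that express a gene and less RNA per cell cannot be told apart.

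Markers of the line were checked on all arrays. VIM, CD44 and AXL, which mark its mesenchymal state, had signals of 3976 to 14420 on the 24 arrays. ESR1 and CDH1, the gene of E-cadherin, were detected on 0 arrays, PGR on 1 and GATA3 on 24 at 36.8 to 78.8. Of the markers of other cell types, the leukocyte genes PTPRC and CD3E and the endothelial gene CDH5 were detected on 0 arrays, and PECAM1 on 16 at up to 43.0. The arrays were of like depth, with a median bead signal of 101.7 to 123.1, 19754 to 21286 probes detected, and correlations of 0.98 to 0.997 between the 2 arrays of a group.

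The mature sequences of 4 of the microRNAs are shown. Of these 4, miR-369-3p, whose mimic had most of the tested upward calls of the members, shared the longest run of bases with miR-655-3p. The part of this likeness in the calls was not tested. The RefSeq sequences (GRCh38.p14, all on the plus strand) are given with the seed, bases 2 to 8, in capitals; a microRNA recognises its targets mainly through this stretch. The arms of miR-410 and miR-135a are not given in the labels, so their sequences are not shown.
hsa-miR-655-3p (chr14:101049610-101049631): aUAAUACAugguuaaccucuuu
hsa-miR-369-3p (chr14:101065641-101065661): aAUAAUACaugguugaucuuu
hsa-miR-544a (chr14:101048712-101048733): aUUCUGCAuuuuuagcaaguuc
hsa-miR-127-5p (chr14:100883001-100883022): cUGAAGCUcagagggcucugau
No 2 of the 4 seeds were identical. A run of 13 bases, AUAAUACAUGGUU, was common to miR-655-3p and miR-369-3p. It starts at base 2 of miR-369-3p and at base 1 of miR-655-3p, so that the same letters are read 1 base apart in the 2 seeds. No other pair shared a run of more than 4 bases.

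With the miR-655-3p mimic 11 of the 18 member probes, in 7 genes, were past the threshold upward against the NT control (1.4-fold or more, with a limma adjusted p below 0.05, which 5.51% of all probes passed upward), and 1 was past it downward (5.9% of all probes). With the miR-544a mimic 3 were past it upward (11.2% of all probes) and 2 downward (9.8%). These 2 mimics chose the members, so their values are a description and carry no test. The other groups were tested with limma, each against the NT control. With the other 4 mimics 6 of 72 pairs of a member probe and a mimic were called higher (8.33%, against 5.41% of all pairs) and 6 were called lower (8.33%, against 5.79%). With the 5 inhibitors 1 of 90 pairs was called higher (1.11%, against 4.02%) and 8 were called lower (8.89%, against 4.02%), 5 of these 8 being CGNL1. The 1 call upward came with the miR-655-3p inhibitor (1.97% of all probes), and none came with the miR-544a (1.92%), miR-410 (4.15%), miR-135a (5.67%) or miR-369-3p (6.42%) inhibitor. The 4 mimic and 5 inhibitor comparisons share the NT control arrays, which were also among the values that chose the members. The calls upward were unevenly spread over the mimics: the miR-369-3p mimic had 4 of the 6, where 2.31% of all probes were called higher, the miR-127-5p and miR-410 mimics had 1 each (7.75% and 3.46% of all probes) and the miR-135a mimic had 0 (8.14%).

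**Figure D1:**
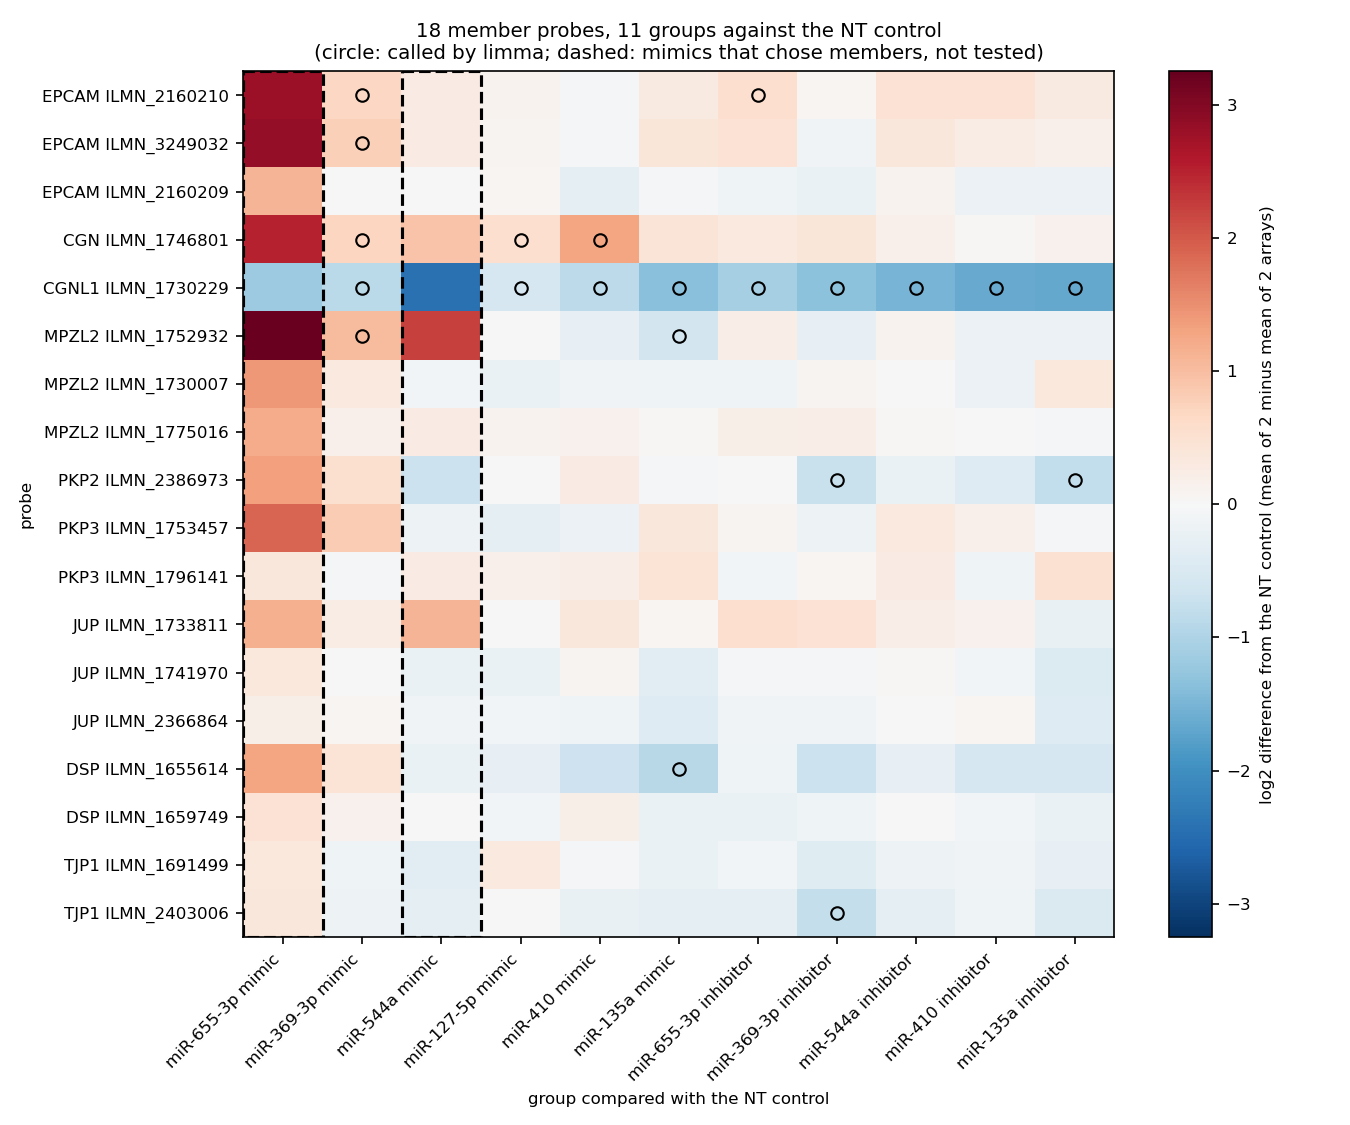
Log2 difference from the NT control of the 18 member probes (down the page) in the 6 mimic and 5 inhibitor groups (across), each cell a mean of 2 arrays minus the mean of the 2 NT arrays. Circles mark tested calls, dashed frames the miR-655-3p and miR-544a mimics, which were not tested; the CGNL1 row is below 0 in all 11 groups.

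EPCAM (chr2:47369311-47387020, GRCh38.p14) encodes an adhesion protein of the epithelial surface that is widely used as a marker of carcinoma cells. Its probe ILMN_2160210 had signals of 3459.5 and 3731 on the miR-655-3p mimic arrays, 899 and 787 with the miR-369-3p mimic, 506 to 829.9 (median 691) on the 10 inhibitor arrays, and 563 and 487 on the NT arrays. The miR-655-3p mimic stood clear of the other 22 arrays, none of which passed 899. The difference between the miR-655-3p mimic and the NT control was 2.78 ± 0.13 on the log2 scale (SE), a fold of 6.86, and a second probe, ILMN_3249032, gave a fold of 7.19 with signals of 2167 and 2563, against 334 and 322 in the NT control. The dimmest EPCAM probe, ILMN_2160209, was near background, at 59.6 and 62.4 with the miR-655-3p mimic and at 23.5 and 34.2 in the NT control. These values are a description.

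EPCAM rose with the miR-369-3p mimic as well. ILMN_3249032 had signals of 559.8 and 560.5 with this mimic, against 334 and 322 in the NT control, and no array of a group other than the 2 mimics reached 486. The log2 difference was 0.77 ± 0.13 (SE, adjusted p = 0.00144 by limma), and the call held whichever array was left out, with adjusted p of at most 0.0238, but not with median scaling in place of quantile normalization. ILMN_2160210 differed by 0.68 ± 0.13 (adjusted p = 0.00392), a call lost without NT control replicate 2 (adjusted p = 0.0736) or miR-369-3p mimic replicate 1 (adjusted p = 0.0756), and with median scaling (adjusted p = 0.0957). Against the mean of the inhibitor arrays it was 0.32 (adjusted p = 0.0752), while ILMN_3249032 was 0.55 (adjusted p = 0.00266). For the miR-127-5p, miR-410 and miR-135a mimics the differences of both probes from the NT control did not exceed 0.39 on the log2 scale and none was called. Inhibitors, too, were above the NT control on ILMN_2160210. The miR-410 inhibitor differed by 0.48 (adjusted p = 0.0217 by limma), not called at a fold of 1.394. The miR-544a inhibitor differed by 0.46 (adjusted p = 0.052). On ILMN_3249032 these inhibitors gave 0.25 and 0.36 and were not called. The miR-655-3p inhibitor, tested against the NT control, gave 0.54 ± 0.13 on ILMN_2160210 (adjusted p = 0.0244, 1.97% of all probes called higher), with signals of 701 and 829.9, against 563 and 487. That call was lost without NT control replicate 1 (adjusted p = 0.0628), NT control replicate 2 (0.252) or miR-655-3p inhibitor replicate 2 (0.183), and ILMN_3249032 had 0.46 ± 0.13 in the same comparison (adjusted p = 0.0546).

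MPZL2 (chr11:118253416-118264297) encodes an adhesion protein of the immunoglobulin superfamily found between epithelial cells. Its bright probe ILMN_1752932 had signals of 467 and 410.2 with the miR-655-3p mimic, 212 and 232 with the miR-544a mimic, 102 and 91.2 with the miR-369-3p mimic, 37.0 to 58.5 (median 42.8) on the 10 inhibitor arrays, and 45.6 and 48.7 in the NT control. The 3 mimics stood in that order without overlap and above all other arrays. The described log2 differences from the NT control were 3.22 ± 0.16 for the miR-655-3p mimic and 2.23 ± 0.16 for the miR-544a mimic (SE). The rise with the miR-369-3p mimic was tested and was 1.03 ± 0.16 (adjusted p = 0.000825 by limma), which held whichever array was left out (adjusted p of at most 0.0198) but not without background correction. MPZL2 fell with the miR-135a mimic, to 30.3 and 32.1 (log2 difference -0.60 ± 0.16, adjusted p = 0.0128, 8.27% of all probes called lower), a call lost without NT control replicate 2 (adjusted p = 0.0909) or miR-135a mimic replicate 1 (0.0851). The other 2 tested MPZL2 probes were dim. ILMN_1730007 had 80.4 and 70.3 with the miR-655-3p mimic, against 28.5 and 27.8 in the NT control, and at most 39.0 on any other array. It was at 23.9 and 28.9 with the miR-544a mimic, whose rise was thus seen on the bright probe alone. With the miR-369-3p mimic it was at 36.3 and 33.9 and was not called. ILMN_1775016 was detected with the miR-655-3p mimic alone, at 50.1 and 44.2, which is at least 1.77-fold above the NT control. Such a bound sets the mean of the detected group against the level at the detection threshold in the other.

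CGN (chr1:151510170-151538692) encodes cingulin, a protein of the tight junction plaque that links the junction to actin and tubulin. Its 1 probe, ILMN_1746801, had signals of 194 and 179.9 with the miR-655-3p mimic, 87.0 and 73.7 with the miR-410 mimic, 60.4 and 64.6 with the miR-544a mimic, 56.8 and 49.9 with the miR-369-3p mimic, 52.9 and 43.0 with the miR-127-5p mimic, and 45.04 and 43.4 with the miR-135a mimic. The 10 inhibitor arrays ranged over 31.3 to 45.3 (median 37.4), and the NT arrays stood at 32.7 and 32.9. All 12 mimic arrays lay above both NT arrays, and so did every inhibitor array except miR-410 inhibitor replicate 2, at 31.3. The NT control thus had the lowest mean of the 12 groups. In this order of the mimics the arrays of miR-127-5p overlapped those of its neighbours miR-369-3p and miR-135a, and no other neighbours overlapped. The log2 difference from the NT control was 2.51 ± 0.13 with the miR-655-3p mimic and 0.93 ± 0.13 with the miR-544a mimic (SE, described). Tested by limma, CGN rose with the miR-410 mimic (1.29 ± 0.13, adjusted p = 1.01e-05), the miR-369-3p mimic (0.70 ± 0.13, adjusted p = 0.00395) and the miR-127-5p mimic (0.54 ± 0.13, adjusted p = 0.00728). The difference with the miR-135a mimic, 0.43 ± 0.13 at an adjusted p of 0.028, was under the fold of 1.4. The miR-410 call held without each array in turn (adjusted p of at most 0.000439). The miR-369-3p call was lost without miR-369-3p mimic replicate 1 (adjusted p = 0.0756), and the miR-127-5p call without NT control replicate 1 (0.0503) or miR-127-5p mimic replicate 1 (0.103). All 3 calls were lost without background correction, which shrinks the folds of a probe this dim. The miR-369-3p and miR-127-5p calls were also lost with an offset of 50, and the miR-127-5p call with median scaling. Against the inhibitor arrays the difference with the miR-127-5p mimic was 0.33, under the fold of 1.4.

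CGNL1 (chr15:57376505-57550717) encodes paracingulin, a relative of cingulin found at tight and adherens junctions, and it took a course of its own. Its probe ILMN_1730229 stood at 110.4 and 115 in the NT control, the highest of all 24 arrays, and at 19.9 to 82.2 on the other 22. With the miR-544a mimic it was at 19.9 and 21.9 and not detected, at least 4.14-fold below the NT control, and with the miR-655-3p mimic it was at 49.9 and 50.02 (log2 difference -1.18 ± 0.18, SE), both described. In each of the 9 tested groups it fell below the NT control. Among mimics the log2 difference was -1.36 ± 0.18 for miR-135a (adjusted p = 3.65e-05), -0.89 ± 0.18 for miR-369-3p (0.00573, 2.76% of all probes called lower), -0.86 ± 0.18 for miR-410 (0.0046, 4.1% called lower) and -0.55 ± 0.18 for miR-127-5p (0.0336, 8.02% called lower). Among inhibitors it was -1.66 for miR-135a (adjusted p = 9.47e-06, 5.97% called lower), -1.63 for miR-410 (1.99e-05, 5.16%), -1.51 for miR-544a (7.63e-05, 1.85%), -1.33 for miR-369-3p (0.000132, 5.87%) and -1.08 for miR-655-3p (0.00172, 1.25%), each with an SE of 0.18. All 9 comparisons share the same 2 NT arrays, which were the arrays that stood apart. These NT arrays were also among the values by which the members were chosen, so the 9 calls are not independent of that choice.

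Set against the mean of the 10 inhibitor arrays instead, the direction of CGNL1 turned for 5 of the 6 mimics. It was then higher with the miR-127-5p mimic (log2 difference 0.89 ± 0.14, adjusted p = 9.57e-05), the miR-410 mimic (0.58 ± 0.14, adjusted p = 0.0101) and the miR-369-3p mimic (0.55 ± 0.14, adjusted p = 0.0208), and was 0.09 for the miR-135a mimic (adjusted p = 0.70). The described value for the miR-655-3p mimic was 0.27. The miR-544a mimic was lowest in both settings. In this alternative the miR-369-3p mimic had 6 member probes called higher (1.68% of all probes) and 0 lower (1.75%), the miR-410 mimic 3 higher (2.43%) and 0 lower (3.14%), the miR-127-5p mimic 2 higher (9%) and 0 lower (9.08%), and the miR-135a mimic 0 higher (6.99%) and 1 lower (6.7%). Against the NT control, the calls for the miR-135a and miR-410 mimics and the 5 inhibitors held without each array in turn. The miR-369-3p mimic call was lost without NT control replicate 2 (adjusted p = 0.0621) or miR-369-3p mimic replicate 2 (0.0873), and the miR-127-5p mimic call without any 1 of the 4 arrays compared (adjusted p of 0.0566 to 0.213). Without background correction, or with plain subtraction, the calls for the miR-410, miR-369-3p and miR-127-5p mimics were lost, and with plain subtraction that for the miR-655-3p inhibitor.

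TJP1 (chr15:29699367-29969049) encodes ZO-1, the scaffold that ties tight junction membrane proteins to actin. Its probe ILMN_1691499 ranged over 727 to 1348 on the 24 arrays, at 1348 and 1238 with the miR-655-3p mimic, at 1306 and 1272 with the miR-127-5p mimic and at 1078 and 977 in the NT control. Both mimics lay above all other arrays on this probe. The miR-127-5p mimic differed from the NT control by 0.33 ± 0.12 on the log2 scale (adjusted p = 0.0635 by limma, not called) and from the mean of the inhibitor arrays by 0.53 ± 0.09 (adjusted p = 0.000303, called). ILMN_2403006 ranged over 291 to 811, at 792 and 811 with the miR-655-3p mimic and at 707 and 543 in the NT control. The described log2 differences of the miR-655-3p mimic from the NT control were 0.33 ± 0.12 and 0.37 ± 0.18 (SE), under the fold of 1.4. Against the NT control the one tested call was a fall of ILMN_2403006 with the miR-369-3p inhibitor, to 444 and 291 (log2 difference -0.78 ± 0.18, adjusted p = 0.00702 by limma), which was lost without NT control replicate 1 (adjusted p = 0.112) or miR-369-3p inhibitor replicate 2 (0.116).

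**Figure D2:**
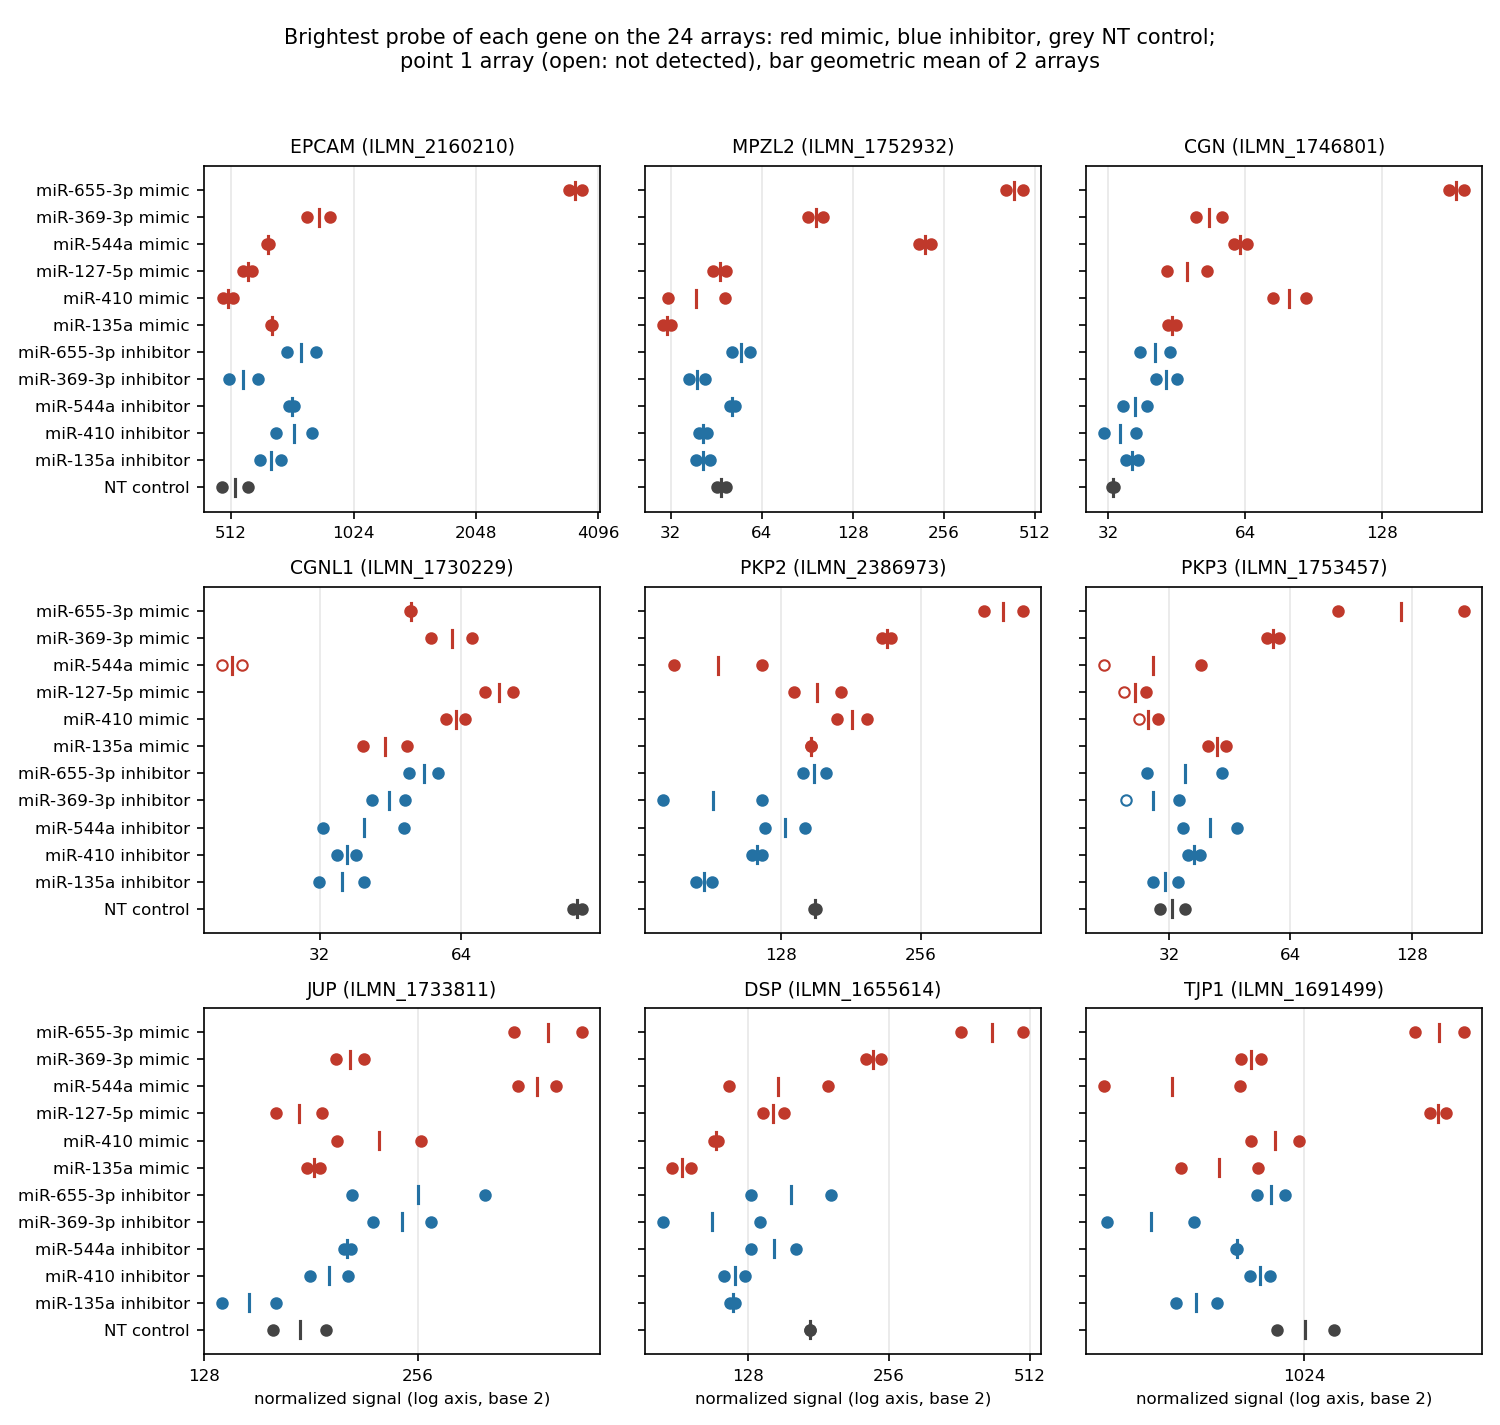
Normalized signal (log axis, base 2) of the brightest probe of each of the 9 genes on the 24 arrays, by group down the page with the NT control at the bottom. Points are single arrays, open where the probe was not detected, and bars are geometric means of 2 arrays; EPCAM with the miR-655-3p mimic lies at 3459.5 and 3731, and CGNL1 in the NT control at 110.4 and 115.

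The desmosome genes, too, had higher signals with the miR-655-3p mimic. Desmosomal cadherins are held by 2 families of plaque proteins, plakoglobin (JUP) and the plakophilins (PKP2, PKP3), which bind desmoplakin (DSP), the link to keratin. DSP (chr6:7541671-7586714, ILMN_1655614) had signals of 364 and 495 with the miR-655-3p mimic, 228 and 246 with the miR-369-3p mimic, 84.4 to 192 (median 128) on the inhibitor arrays, and 173.9 and 173.5 in the NT control. The arrays of both mimics lay above all others, and the described difference of the miR-655-3p mimic from the NT control was 1.29 ± 0.24 on the log2 scale (SE). The miR-369-3p mimic differed from the NT control by 0.45 ± 0.24, which did not pass the test (adjusted p = 0.344). DSP fell with the miR-135a mimic, to 87.9 and 96.9 (log2 difference -0.91 ± 0.24, adjusted p = 0.0122 by limma), a call lost without NT control replicate 1 (adjusted p = 0.0667), NT control replicate 2 (0.0636) or miR-135a mimic replicate 1 (0.0859), and at -0.48 (adjusted p = 0.0752) against the inhibitor arrays. Its dim probe ILMN_1659749 was detected on 8 arrays and stayed under 40 on all of them.

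PKP2 (chr12:32790755-32896777, ILMN_2386973), the plakophilin also found in heart muscle, had signals of 349 and 424 with the miR-655-3p mimic, 212 and 220.4 with the miR-369-3p mimic, 75.7 and 117 with the miR-544a mimic, 71.7 to 160.1 (median 117) on the inhibitor arrays, and 152 and 151 in the NT control. The miR-655-3p mimic was highest and the miR-369-3p mimic second, without overlap. The described log2 difference from the NT control was 1.34 ± 0.21 for the miR-655-3p mimic and -0.69 ± 0.21 for the miR-544a mimic (SE). Against this control the 2 mimics went opposite ways, but the miR-544a mimic arrays lay within the range of the inhibitor arrays. PKP2 fell with the miR-135a inhibitor (-0.79 ± 0.21, adjusted p = 0.018 by limma) and the miR-369-3p inhibitor (-0.73 ± 0.21, adjusted p = 0.029). Each of the 4 arrays compared was needed for the first call (adjusted p of 0.0689 to 0.103 without one), and the second was lost without NT control replicate 1 (0.136), NT control replicate 2 (0.112) or miR-369-3p inhibitor replicate 2, without which the difference was -0.37 (adjusted p = 0.348).

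PKP3 (chr11:392596-404908, ILMN_1753457), the plakophilin of most simple and layered epithelia, had signals of 172 and 83.9 with the miR-655-3p mimic, which overlapped no other group but differed widely between its own arrays. It stood at 60.04 and 56.1 with the miR-369-3p mimic, 25.1 to 47.1 (median 34.2) on the inhibitor arrays, and 35.1 and 30.3 in the NT control. The described log2 difference of the miR-655-3p mimic from the NT control was 1.88 ± 0.30 (SE), and that of the miR-369-3p mimic, 0.83 ± 0.30, did not pass the test (adjusted p = 0.122). A second probe, ILMN_1796141, did not show the pattern: it was at 32.1 and 29.99 with the miR-655-3p mimic and not detected in the NT control, and its highest array, at 42.1, was miR-135a inhibitor replicate 1.

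JUP (chr17:41754609-41786711, ILMN_1733811), which serves both desmosomes and adherens junctions, overlapped between the miR-655-3p mimic, at 349.9 and 436, and the miR-544a mimic, at 400.4 and 353, both above all other arrays. The inhibitor arrays ranged over 136 to 318 (median 205), and the NT arrays stood at 160.1 and 190.02. The described log2 differences from the NT control were 1.16 ± 0.19 and 1.11 ± 0.19 (SE) for the miR-655-3p and miR-544a mimics. None of the 9 tested groups was called against the NT control. The dimmer probes ILMN_1741970 and ILMN_2366864 differed by 0.35 and 0.19 for the miR-655-3p mimic and by -0.23 and -0.10 for the miR-544a mimic, so the rise was seen on 1 of the 3 JUP probes.

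Each mimic was then set against the inhibitor of the same microRNA. The difference uses no NT array, though the spread in the test comes from all 24 arrays. For miR-135a, miR-369-3p and miR-410, 10 of 54 pairs of a member probe and a microRNA were called higher with the mimic (18.5%, against 5.25% of all pairs) and 1 was called lower (1.85%, against 5.19%). The 1 call downward belonged to miR-410, with none for miR-369-3p (4.23% of all probes) or miR-135a (7.44%). Of the 10, 7 belonged to miR-369-3p, where 4.29% of all probes were called higher, and the median log2 difference of the 18 member probes was 0.29, against -0.01 over all probes. MPZL2 ILMN_1752932 differed by 1.30 ± 0.16 (adjusted p = 0.000126), PKP2 by 1.24 ± 0.21 (0.00211), DSP ILMN_1655614 by 1.14 ± 0.24 (0.00766), PKP3 ILMN_1753457 by 0.99 ± 0.30 (0.0444), EPCAM ILMN_3249032 by 0.89 ± 0.13 (0.000493) and ILMN_2160210 by 0.61 ± 0.13 (0.00736), and TJP1 ILMN_2403006 by 0.63 ± 0.18 (0.0335, all SE and adjusted p by limma). The calls of MPZL2, PKP2 and EPCAM ILMN_3249032 held without each array in turn, with adjusted p of at most 0.0434. Without miR-369-3p inhibitor replicate 2, whose PKP2, DSP and TJP1 ILMN_2403006 signals of 71.7, 84.4 and 291 were the lowest of the 24 arrays, DSP differed by 0.80 (adjusted p = 0.141), PKP3 by 0.78 (0.343), EPCAM ILMN_2160210 by 0.50 (0.107) and TJP1 by 0.33 (0.421). Those 4 calls were also lost without miR-369-3p mimic replicate 1, at adjusted p of 0.0538, 0.211, 0.103 and 0.156, and all but that of EPCAM without miR-369-3p mimic replicate 2. The PKP3 call was lost without any of 15 of the 24 arrays and under 7 of 10 other alternatives. In a model of the 4 arrays alone none of the 7 was called.

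**Figure D3:**
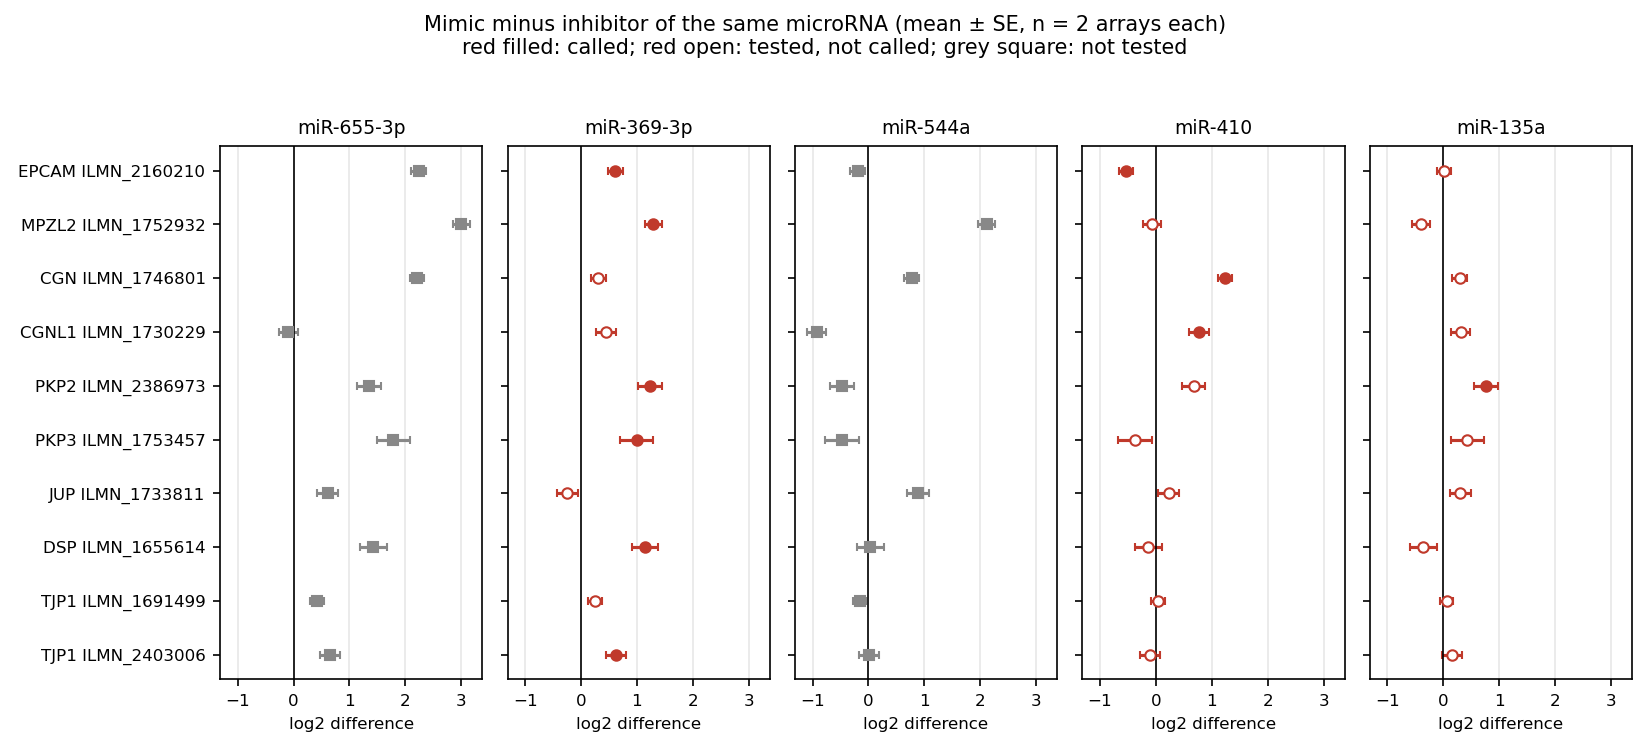
Log2 difference, mimic minus inhibitor of the same microRNA, for 10 member probes and 5 microRNAs, with the SE of the model as bars (n = 2 arrays each). Filled red points were called, open red points were tested and not called, and grey squares belong to mimics that chose the members and were not tested; for miR-369-3p, MPZL2 lies at 1.30 and PKP2 at 1.24.

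For miR-410 the mimic was above its inhibitor for CGN (86.96 and 73.7, against 36.7 and 31.3; log2 difference 1.24 ± 0.13, adjusted p = 1.88e-05, 3.74% of all probes called higher) and for CGNL1 (65.2 and 59.3, against 38.3 and 34.9; 0.77 ± 0.18, adjusted p = 0.0107). The first held without each array in turn but was lost without background correction and with SAM. The second was lost without miR-410 mimic replicate 1 (adjusted p = 0.0825) or miR-410 inhibitor replicate 2 (0.0936) and under 6 other alternatives. EPCAM ILMN_2160210 was lower with the miR-410 mimic, at 518 and 489, against 659.5 and 809 (-0.54 ± 0.13, adjusted p = 0.0138, 3.89% called lower), while ILMN_3249032 gave -0.30 ± 0.13 (adjusted p = 0.163). The EPCAM call was lost without miR-410 mimic replicate 1 (0.0516) or 2 (0.101) or miR-410 inhibitor replicate 2 (0.175). For miR-135a, PKP2 was higher with the mimic, at 149 on both arrays, against 90.99 and 84.3 (0.76 ± 0.21, adjusted p = 0.0175, 7.71% called higher), a call that needed each of the 4 arrays (adjusted p of 0.0622 to 0.0967 without one). For miR-655-3p, described only, 13 member probes were past the threshold upward (4.13% of all probes) and 0 downward (4.86%), and the differences were 3.00 for MPZL2, 2.24 and 2.38 for the bright EPCAM probes, 2.21 for CGN, 1.78 for PKP3, 1.43 for DSP, 1.35 for PKP2, 0.65 for TJP1 ILMN_2403006 and 0.61 for JUP, and CGNL1 was at -0.09, close to 0. For miR-544a 3 were past it upward (10.7%) and 1 downward (9.5%), with 2.11 for MPZL2, 0.89 for JUP and 0.77 for CGN, with CGNL1 at least 1.45-fold lower with the mimic.

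The promoters of the members that have one in the RefSeq table are shown in part. DSP and JUP are those with the most matches to CAGGTG, 1 form of a short element known as the E-box. CGN and CGNL1 are relatives whose signals with the miR-655-3p mimic lay on opposite sides of the NT control. The table holds 9 promoters of 5 member genes (CGN, CGNL1, DSP, JUP and TJP1), each with 250 bases before and 50 after a transcript start. The letters searched were CAGGTG on both strands, that is CAGGTG or its reverse complement CACCTG, and matches are in capitals. Other forms of the E-box were not searched, so a window without a match may hold one.
DSP (chr6:7541421-7541720, plus strand, GRCh38.p14): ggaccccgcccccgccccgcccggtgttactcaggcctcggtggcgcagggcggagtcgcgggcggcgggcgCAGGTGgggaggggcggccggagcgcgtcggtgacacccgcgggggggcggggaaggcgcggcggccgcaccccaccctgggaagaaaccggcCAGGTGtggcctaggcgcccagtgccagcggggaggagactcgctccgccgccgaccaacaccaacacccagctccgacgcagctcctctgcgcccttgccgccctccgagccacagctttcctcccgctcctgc
JUP, second start (chr17:41785927-41786226, minus strand): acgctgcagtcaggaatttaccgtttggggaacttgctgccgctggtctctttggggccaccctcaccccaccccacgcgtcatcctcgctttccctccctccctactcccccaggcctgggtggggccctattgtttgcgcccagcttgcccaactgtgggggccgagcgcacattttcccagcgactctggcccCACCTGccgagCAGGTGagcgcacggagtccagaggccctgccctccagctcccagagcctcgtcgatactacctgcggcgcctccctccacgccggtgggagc
CGN (chr1:151511137-151511436, plus strand): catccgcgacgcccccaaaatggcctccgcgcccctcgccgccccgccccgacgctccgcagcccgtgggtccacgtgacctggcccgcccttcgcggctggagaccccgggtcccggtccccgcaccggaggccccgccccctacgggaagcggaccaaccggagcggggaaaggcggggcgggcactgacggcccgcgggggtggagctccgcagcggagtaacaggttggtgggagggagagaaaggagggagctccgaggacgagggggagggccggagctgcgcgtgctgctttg
CGNL1 (chr15:57376255-57376554, plus strand): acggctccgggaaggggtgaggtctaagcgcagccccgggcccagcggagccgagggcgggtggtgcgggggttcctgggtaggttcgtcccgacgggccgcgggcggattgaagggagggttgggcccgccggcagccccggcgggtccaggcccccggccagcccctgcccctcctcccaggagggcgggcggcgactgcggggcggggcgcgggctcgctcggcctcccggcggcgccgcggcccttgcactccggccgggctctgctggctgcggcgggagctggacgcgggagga
DSP had 2 matches, the second JUP start had 2 and the first of 4 TJP1 starts had 1, so 3 of the 9 windows held the letters. Over all 35116 promoters of the same length 20.6% held at least 1 match and 3.49% held 2 or more. The first JUP start, CGN, CGNL1 and the other 3 TJP1 starts had no match in these windows. A match is a description of the letters and does not show that a factor binds there.

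Other genes were followed through 6 lists with 98 genes, 78 of junctions and adhesion and 20 that regulate epithelial genes, of which 52 had a tested probe and were read on the brightest. Over the 11 comparisons with the NT control 30 of 572 pairs of a gene and a comparison were called higher (5.24%, against 5.32% of all pairs) and 54 were called lower (9.44%, against 5.36%). Without NT control replicate 1 these were 17 and 28, and without NT control replicate 2 they were 16 and 34. With the miR-655-3p mimic 7 list genes rose (13.5%, against 5.51% of all probes) and 6 fell (11.5%, against 5.9%). The median log2 difference of the 21 tight junction genes was -0.001 and that of the 8 desmosome genes 0.02, against 0.006 over all probes. List genes were read on their brightest probe, while the shares over all probes count every tested probe, so these shares are not of like probes. The lists hold what was left once the members had been taken out. They were written with earlier results of these data known, so the calls and adjusted p-values of list genes are a description. CDH1 and the tight junction protein gene OCLN had no tested probe.

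Of the 21 tight junction genes 4 rose and 2 fell with the miR-655-3p mimic. PATJ, a scaffold of apical polarity, averaged 118 ± 6.4, against 51.6 ± 3.5 in the NT control (SD, n = 2 each; log2 difference 1.19, adjusted p = 0.000172 by limma), and PARD6A averaged 146 ± 12.7, against 66.7 ± 0.53 (1.13, adjusted p = 8.66e-05). CRB3, the small membrane protein that positions this complex, averaged 56.4 ± 3.3, against 26.2 ± 0.98 in the NT control, where it was not detected, and was at least 2.11-fold higher (adjusted p = 7.84e-05). CXADR, an adhesion protein of tight junctions that viruses use as a receptor, averaged 688 ± 44.3, against 309 ± 13.1 (1.15, adjusted p = 2.11e-05). Against these, the claudin gene CLDN12 fell, to 386 ± 20.2, against 860 ± 14.1 (-1.16, adjusted p = 1.06e-06). The other of the 2 that fell is not named. In the desmosome list PPL, which encodes periplakin, rose to 159 ± 31.3, against 79.6 ± 1.7 (0.98, adjusted p = 0.00836). Of adhesion genes the tetraspanin gene CD9 rose (0.71, adjusted p = 0.0107) and NECTIN3 fell (-0.97, adjusted p = 0.000684), and of gap junction genes GJA3 fell (-0.93, adjusted p = 0.000897).

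Of the regulators, 1 of 6 measured drivers and 2 of 3 measured repressors were called with this mimic. KLF4, a transcription factor that favours epithelial genes, rose, at 213 ± 62.2 with the miR-655-3p mimic, against 106 ± 3.2 in the NT control (0.98, adjusted p = 0.00266). Both repressors fell. SNAI2 averaged 779 ± 53.9 with the miR-655-3p mimic, against 1626 in the NT control (-1.07, adjusted p = 0.00153), and ZEB1, a dim probe, averaged 31.3 ± 7.8, against 60.6 ± 3.2 (-0.98, adjusted p = 0.0107). ZEB2 was at 28.3 ± 2.5, against 44.99 ± 9.9 (-0.65, adjusted p = 0.0773), and was not called. ZEB1 fell also with the miR-127-5p mimic (-0.74, adjusted p = 0.0392), the miR-135a mimic (-0.73, adjusted p = 0.04) and the miR-369-3p inhibitor (-1.12, adjusted p = 0.00519). SNAI2 fell with the miR-127-5p mimic (-0.88, adjusted p = 0.00472). Repressors were added after their values were seen, so their adjusted p-values are a description. The part of these regulators in the values of the members was not tested.

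With the miR-369-3p mimic 0 list genes were called higher by limma (2.31% of all probes were) and 2 were called lower (3.85%, against 2.76%), the desmosome gene PERP (-0.75, adjusted p = 0.0485) and the gap junction gene GJA3 (-0.58, adjusted p = 0.0475). PATJ, at 63.2 with the miR-369-3p mimic, against 51.6 in the NT control (adjusted p = 0.42), CRB3, at 24.8, against 26.2 (0.855), and KLF4, at 111, against 106 (0.901), were not called. With the miR-544a mimic 5 list genes rose (9.62%, against 11.2% of all probes) and 7 fell (13.5%, against 9.8%), among them PARD6A (1.29, adjusted p = 1.19e-05), the adhesion gene ALCAM (-1.75, adjusted p = 4.62e-06), NECTIN3 (-1.18, adjusted p = 6.5e-05) and PPL (-0.70, adjusted p = 0.0345). Against the NT control PPL thus fell together with the lower PKP2 signal, whereas with the miR-655-3p mimic both were higher.

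With the miR-127-5p mimic 8 list genes rose (15.4%, against 7.75% of all probes) and 5 fell (9.62%, against 8.02%). Those that rose were led by EHF, an epithelial transcription factor (1.08, adjusted p = 0.0369), CXADR (0.94, adjusted p = 0.000111), the polarity gene PALS1 (0.80, adjusted p = 0.000283) and CLDN3 (0.79, adjusted p = 0.0242). With the miR-135a mimic 4 rose (7.69%, against 8.14%) and 5 fell (9.62%, against 8.27%), the fall of GJB2, a gap junction gene, being widest at -1.51 (adjusted p = 6.5e-07). With the miR-410 mimic 1 rose (1.92%, against 3.46%), EHF at 1.30 (adjusted p = 0.0252), and 5 fell (9.62%, against 4.1%), CLDN12 the most at -1.08 (adjusted p = 5.47e-06). Among inhibitors the lists fell most often with miR-410 (9 genes, 17.3%, against 5.16% of all probes) and miR-135a (8 genes, 15.4%, against 5.97%), where PPL stood at -1.24 (adjusted p = 0.00242) and -1.41 (adjusted p = 0.00061). NECTIN3 fell in 8 of 11 comparisons, and it, like CGNL1, was called lower with all 5 inhibitors, which share the NT arrays.

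**Figure D4:**
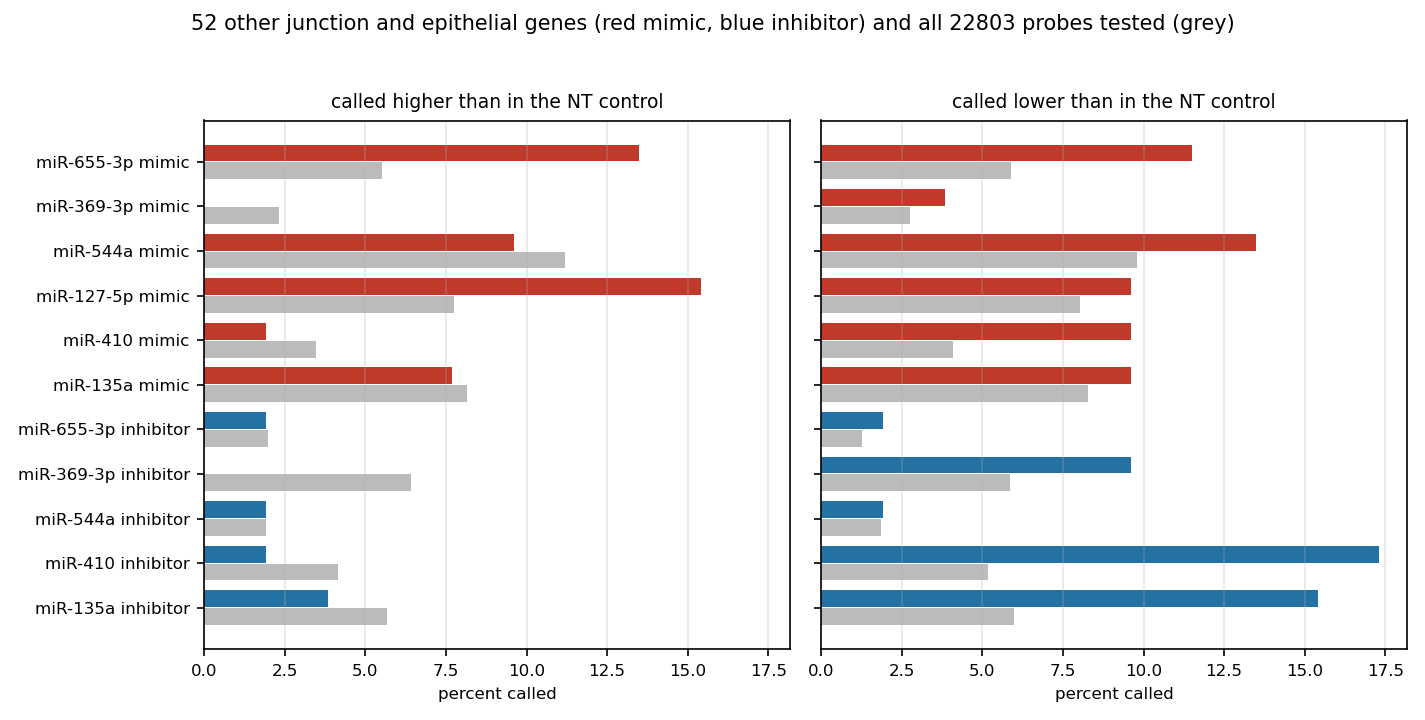
Percent of the 52 other junction and epithelial genes (red for mimics, blue for inhibitors) and of all 22803 probes tested (grey) called higher (left) and lower (right) than in the NT control, by group down the page. The upward share for the miR-655-3p mimic is 13.5%, against 5.51% of all probes, and that for the miR-369-3p mimic is 0%, against 2.31%. List genes were read on their brightest probe, while grey bars count every tested probe.

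The members were not all alike over the 12 groups. Over the 12 group means, which come from 1 cell line and are given as a description, EPCAM and PKP3 correlated at 0.938 and still at 0.779 without the miR-655-3p mimic, and MPZL2 and JUP at 0.832 and 0.722. EPCAM and CGN correlated at 0.764 with the miR-655-3p mimic and at -0.253 without it, so that pair rested on the 1 group. CGNL1 correlated with EPCAM at -0.0858, with CGN at -0.0518 and with MPZL2 at -0.273. Among 4191 genes whose group means spanned more than 1 on the log2 scale, those most like EPCAM were PKP3, the membrane protease gene ST14 (0.927) and CRB3 (0.923), and those most like CGN were KLF4 (0.926), PFKFB2 (0.905) and ST14 (0.898). These correlations include the miR-655-3p and miR-544a mimics, which chose the members. All values without the miR-655-3p mimic still include the miR-544a mimic, the next highest group for both MPZL2 and JUP. Without the miR-655-3p mimic, in an alternative added after seeing the data, ST14 and CRB3 correlated with EPCAM at -0.128 and 0.163. KLF4, PFKFB2 and ST14 then correlated with CGN at 0.724, 0.743 and 0.661. The genes named next for other members stood at 0.751 to 0.912 without the miR-655-3p mimic. Those most like MPZL2 were LTB (0.954), RAB17 (0.936), a GTPase of epithelial membrane traffic, and ARHGEF5 (0.933). DSP was most like ARHGEF35 (0.943), a near-identical relative of ARHGEF5, MYO5C (0.94) and STRBP (0.937), and PKP2 was most like HSPA4L (0.918), CARMIL1 (0.915) and PPL (0.90). JUP was most like APBA2 (0.922), MANSC1 (0.897) and ICA1 (0.894), and PKP3 was most like DEFB103A (0.94), which has near-identical copies, EPCAM and TRNP1 (0.919). CGNL1 was most like CDH11 (0.912), a mesenchymal cadherin, SSH2 (0.91) and ERGIC2 (0.902), all 3 of them with higher signals in the NT control than with the miR-655-3p mimic.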

How the data were processed

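MDA-MB-231 cells in 12 groups of 2 were measured on 24 Illumina HT12v4 arrays, with groups as the labels give them. The authors deposited the bead signal intensity of each probe, not yet background-subtracted or normalized, and a detection p-value that sets the probe against the negative controls of its array. The authors also deposited a table of log2 values, background-subtracted and quantile normalized, in which 13353 to 13395 values per array are missing. The labels name Trizol and RNeasy for the RNA, the methods another kit.

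Here neqc (limma 3.58.1, R 4.3.3) corrected the intensities for a background it read from the detection p-values, added 16, equalised the quantiles of the arrays and took log2. A signal is 2 to the power of that value, so a probe at background reads about 20 and folds of dim probes are understated. Genes come from the platform annotation: 30109 probes carry 1 symbol, 8 several and 17192 none. limma fitted 12 group means to the 24 arrays (12 residual and 3.96 prior degrees of freedom). Mimics and inhibitors were compared with the NT control, and mimics with their inhibitor, with Benjamini-Hochberg adjustment over 22803 probes. A call needs an adjusted p below 0.05 and a change of 1.4-fold or more, the values of the methods, whose test (SAM) was an alternative.

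The members and lists were chosen with earlier results of these data known. A member probe is given array by array where it was called or its group means span more than 1 on the log2 scale. Of a list, up to 4 genes with the largest change among those called are named for a comparison, and the 3 genes most like a member by Pearson correlation. For the miR-655-3p mimic a further tight junction gene, CRB3, is named. Repressors and a few uncalled list genes were added after their values were seen. The fit was tested on simulated data. Precision is limited by having only 2 arrays for each group. Alternatives concerned background, offset, scaling, the deposited log2 values, the filter, the model, SAM and left-out arrays. Plots used Python 3.11.15 (matplotlib 3.10.9).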

Additional observations from a re-analysis of the deposited data

How the results depend on the processing

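Of the 32 tested calls of member probes 14 held without each of the 24 arrays in turn and 18 were lost without at least 1. Only 4 of the 32 held under every alternative that could test them, all 4 of inhibitors against the NT control. These 4 were all of CGNL1, on the same probe and against the same NT arrays. The alternative that sets mimics against the inhibitor arrays did not apply to them. All 32 kept their direction under every alternative except the one that sets mimics against the inhibitor arrays. Calls lost were 16 without background correction, 15 with median scaling, 13 in the model of only the arrays compared, 7 with plain subtraction, 6 with an offset of 50, 5 with SAM, 3 without a filter and 0 with a detection p under 0.01. Against the inhibitor arrays, of the 12 calls of mimics against the NT control 5 held, 4 reversed and 3 were lost: EPCAM ILMN_2160210 with miR-369-3p (0.32), CGN with miR-127-5p (0.33) and DSP with miR-135a (-0.48). The deposited log2 values, which could test 22 of the calls, lost 1. The replicate block left all 32 called, and replicate numbers did not pair the arrays: over 66 pairs of groups the deviations correlated at -0.485 to 0.521 (median 0.0411), and 27 were over 0.1. Under the replicate block the 8 counts below were 6, 6, 1, 8, 10, 1, 32 and 54.

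As reported, the calls were 6 higher and 6 lower (4 mimics against the NT control), 1 higher and 8 lower (5 inhibitors against the NT control), 10 higher and 1 lower (3 mimics against their own inhibitor), and 30 higher and 54 lower (other junction and epithelial genes). Leaving out 1 array gave 4 to 6, 2 to 7, 0 to 2, 5 to 10, 6 to 11, 0 to 1, 16 to 34 and 28 to 65 in that order. A lone array left in a group was assumed to vary like the other groups.

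For the 4 mimics against the NT control, calls higher were 2 without background correction, 3 with median scaling and 11 against the inhibitor arrays, and calls lower were 2 without background correction, 3 with plain subtraction, 2 in the deposited log2 values and 1 against the inhibitor arrays. For the 5 inhibitors, calls higher were 0 without background correction, with median scaling, in the model of only the arrays compared and with SAM, 2 without a fold threshold, and 3 with plain subtraction and in the deposited log2 values; calls lower were 5 with median scaling and 3 in the deposited log2 values, where CGNL1 could not be compared. For the 3 mimics against their own inhibitor, calls higher were 6 without background correction, 4 with median scaling and 2 in the model of only the arrays compared, and calls lower were 0 under these 3 settings and with SAM. For the other junction and epithelial genes, calls higher were 18 without background correction and 13 with median scaling, and calls lower were 30 without background correction. The cause was not tested. Against the inhibitor arrays CGNL1 reversed to 0.89 (miR-127-5p mimic), 0.087 (miR-135a), 0.55 (miR-369-3p), 0.58 (miR-410) and 0.27 (miR-655-3p). Signals near background limit the precision of dim probes.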
